A study of Arabidopsis thaliana with 90 samples.

Results

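The genes described here are those of the chloroplast genome of Arabidopsis thaliana, taken as the rows of the deposited count table whose identifier starts with ATCG. Of 133 such rows, 100 reached 5 counts in 25% or more of the 90 libraries, that is in 23 libraries, and are called members below, and 33 did not, of which 6 had no count in any library. The 100 members stood among 20844 genes tested, the others being 20695 nuclear and 49 mitochondrial genes. Members are called by their identifiers, since the sources used here pair almost none of them with a gene name, and for 6 of them a protein named in a RefSeq note is given below.

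The study grew seedlings of the Landsberg erecta ecotype on MS plates in the dark at 17 or 27 °C and sequenced poly(A)-enriched RNA from whole 4-day-old dark-grown seedlings that stayed in darkness or received red light (R, 50 µmol m-2 s-1) for 1 h or 24 h, with 3 libraries in each of 30 groups. All 5 lines lack functional copies of most of the 5 phytochromes, the plant's red and far-red light receptors. PHYD-YFP/abcde carries a phyD-YFP fusion driven by the constitutive 35S promoter in a quintuple mutant with no functional phytochrome of its own. PHYD-YFP/abCde carries the same transgene with phyC intact, aBcde has phyB alone, PHYB-CFP/abcde carries a phyB-CFP fusion driven by the PHYB promoter in the quintuple mutant, and PHYB-CFP, PHYD-YFP/abcde carries both transgenes, each transgenic line being a selected homozygous line. No line with all of its phytochromes is analysed here, and each irradiated group is set against darkness in the same line and temperature, and 27 °C against 17 °C. Nothing in the labels says that the 3 libraries of a group came from separate cultures, so p-values measure the spread between these libraries.

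The chloroplast genome encodes core subunits of the photosystems, of the cytochrome complex between them, of the ATP synthase and of an NADH dehydrogenase-like complex, the large subunit of Rubisco, part of the plastid's ribosomes and the subunits of its own bacterial-type RNA polymerase. Its genes lie largely in clusters that are transcribed together, partly by that plastid-encoded polymerase, which needs sigma factors made in the nucleus, and partly by nuclear-encoded polymerases of the phage type. In the dark the plastid of a seedling is an etioplast, and light turns it into a green chloroplast. Mature plastid mRNA is mostly without a poly(A) tail, and in plastids an added A-rich tail marks RNA for degradation. A poly(A) selection therefore carries over plastid RNA incompletely, and the values below are compared between groups and not between genes or with nuclear genes.

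Libraries held about 15010400 to 41124200 counts (median 17751700), of which 0.0306 to 2.97% (median 0.992%) fell on members. Levels are given as CPM, counts relative to the TMM-scaled sum of a library's nuclear counts. The members summed to between 320 and 32950 CPM per library, and the mitochondrial genes, also outside the nucleus and also carried through a poly(A) selection, to between 1059 and 21418 CPM. The median chloroplast sum was 12637 CPM in PHYD-YFP/abcde, 5345 CPM in PHYD-YFP/abCde, 3525 CPM in aBcde, 11894 CPM in PHYB-CFP/abcde and 21731 CPM in the line with both transgenes (18 libraries each). A line and its library preparation cannot be told apart, so these line levels are not compared further. In 5 libraries the chloroplast sum was at least 3-fold below that of both other replicates, all of them replicate 3. These were the aBcde libraries in darkness at 17 °C (942 CPM) and with 1 h R at 27 °C (1171 CPM), the PHYD-YFP/abCde library with 1 h R at 17 °C (320 CPM), and the PHYB-CFP/abcde libraries with 1 h R at 17 °C (2222 CPM) and at 27 °C (4304 CPM). Counts of called members are given below also without these libraries for many of the comparisons where that moves them by more than 1.5 times. All 100 members of a library share these swings, so a count of members called is not a count of independent events. PHYD was at or above 3852 CPM in every library of the lines that carry PHYD-YFP, against 11.8 to 588 CPM in the lines without it, where 6 libraries were above 50 CPM. PIL1, a nuclear gene that red light represses, stood at 62.1 to 117 CPM in the 30 dark libraries, at 1.34 to 46.0 CPM after 1 h and at 0.146 to 50.7 CPM after 24 h.

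**Figure D1:**
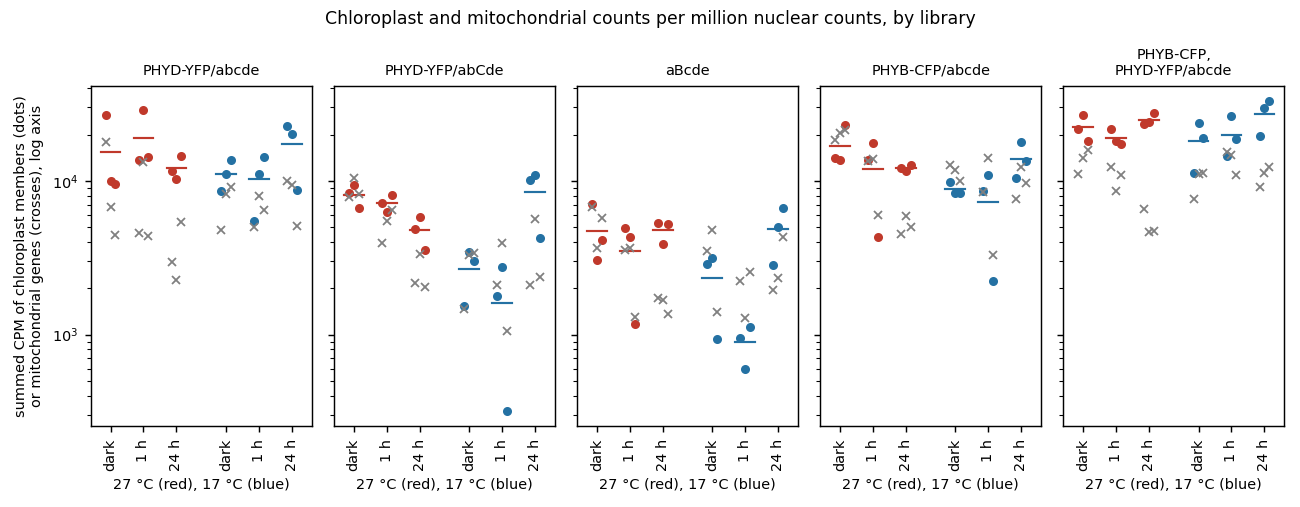
Chloroplast sum (dots) and mitochondrial sum (crosses) of each of the 90 libraries in CPM on a log axis, with 1 panel per line, light states on the x axis, 27 °C in red left of 17 °C in blue, and bars at the mean chloroplast sum of a group. PHYD-YFP/abCde in darkness sat at 6606 to 9358 CPM of chloroplast genes at 27 °C, all above the 1542 to 3438 CPM at 17 °C.

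In darkness, the mean chloroplast sum was higher at 27 °C than at 17 °C in every line. The chloroplast sum averaged 8093 ± 1389 CPM at 27 °C and 2661 ± 993 CPM at 17 °C in PHYD-YFP/abCde, and 16918 ± 5297 CPM at 27 °C and 8874 ± 881 CPM at 17 °C in PHYB-CFP/abcde (SD, n = 3 each), with no overlap between the temperatures in either line. In the other 3 lines the temperatures overlapped, with 4731 ± 2073 CPM at 27 °C and 2333 ± 1212 CPM at 17 °C in aBcde, 15460 ± 9893 CPM at 27 °C and 11110 ± 2490 CPM at 17 °C in PHYD-YFP/abcde, and 22245 ± 4363 CPM at 27 °C and 18058 ± 6396 CPM at 17 °C in the line with both transgenes. In PHYD-YFP/abcde at 27 °C a single library at 26882 CPM stood above the others at 9598 and 9899 CPM. In whole seedlings, fewer cells or plastids and less RNA in each cannot be told apart. After a poly(A) selection, neither can the amount of plastid RNA and the part of it that carries a tail. The mean sum of 9 seed storage genes, a marker of the stage of the seedling, was 509 to 4234 CPM in the dark groups at 27 °C and 8.48 to 759 CPM at 17 °C, and their part in the result was not tested.

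A gene was called when the edgeR quasi-likelihood test gave an adjusted p under 0.05 and the change was at least 2-fold. Members called higher at 27 °C in darkness numbered 82 in PHYD-YFP/abCde, 51 in aBcde, 51 in PHYB-CFP/abcde, 15 in PHYD-YFP/abcde and 10 in the line with both transgenes, and no member was called lower in any line. The same call was made for 13.4%, 11.3%, 9.81%, 10.6% and 9.16% of all genes tested, in the same order of lines, so the members' share stood well above that of all genes in the first 3 of these lines and near it in the last 2. The median log2 fold change of the 100 members was 1.81, 1.29, 1.22, 0.58 and 0.53 in that order, and that of nuclear genes lay between -0.004 and 0.03 in every line. The 49 mitochondrial genes had medians of 1.59, 0.75, 0.77, -0.01 and 0.24 in that order of lines. A positive change in all 5 lines was found for 73 members, and 84 were called in at least 1 line. In that order of lines the counts were 46, 15, 35, 0 and 2 members without replicate 1 of every group, 57, 48, 24, 8 and 4 without replicate 2, and 89, 37, 26, 38 and 24 without replicate 3. Without the 5 libraries of low chloroplast sum, aBcde had 34 and the line with both transgenes 16. With limma PHYD-YFP/abcde had 7, and with only the groups compared the line with both transgenes had 18.

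**Figure D2:**
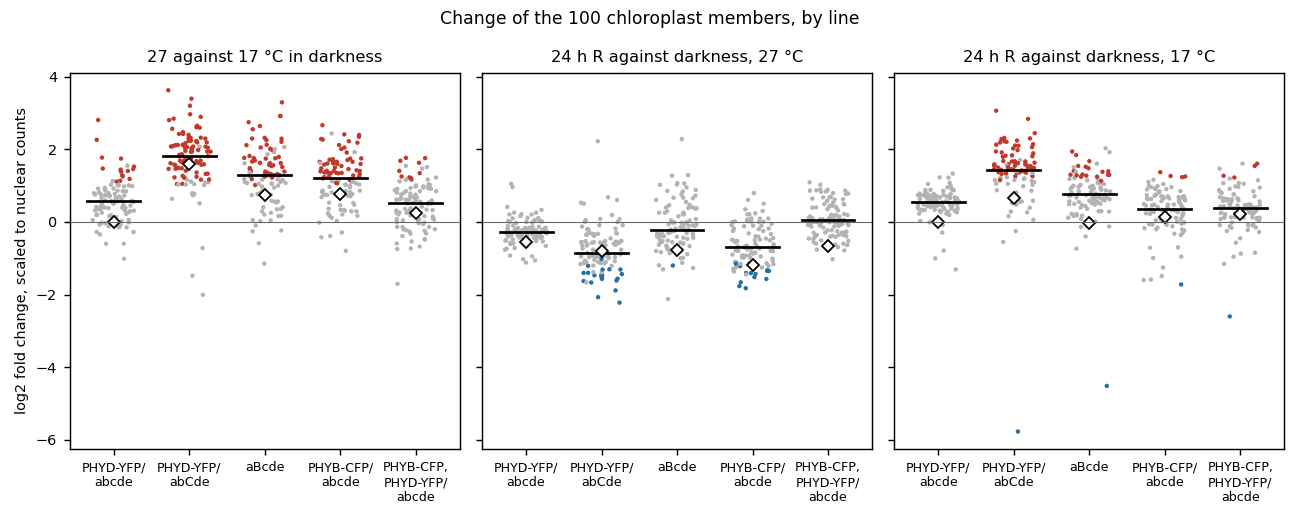
Log2 fold change of the 100 members, scaled to nuclear counts, by line and comparison, with 1 point per member (red called higher, blue called lower, grey not called), a bar at the median and a diamond at the median of the mitochondrial genes. The 27 °C against 17 °C panel in darkness lies mostly above 0 (medians of 0.53 to 1.81), and the 24 h R panels lie mostly above 0 at 17 °C and, apart from the line with both transgenes, mostly below 0 at 27 °C.

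Called higher at 27 °C in darkness in all 5 lines were 8 members: ATCG00020, ATCG00160, ATCG00180, ATCG00420, ATCG00440, ATCG00660, ATCG01100 and ATCG01110. In PHYD-YFP/abCde, ATCG01110 had 110, 125 and 82.4 CPM at 27 °C, against 3.76, 13.0 and 13.3 CPM at 17 °C. In aBcde it had 114, 34.8 and 50.2 CPM at 27 °C, against 11.4, 11.8 and 3.36 CPM at 17 °C. The temperatures did not overlap in these lines, and the log2 fold changes were 3.40 ± 0.55 (SE, adjusted p = 2.4e-07) and 2.92 ± 0.54 (adjusted p = 6.2e-06). ATCG01110 had the smallest adjusted p among members in these lines and in PHYB-CFP/abcde, at a log2 fold change of 2.66 ± 0.52, and rose by 1.75 ± 0.50 in PHYD-YFP/abcde and 1.76 ± 0.50 in the line with both transgenes. ATCG00020 held 248, 319 and 245 CPM at 27 °C in the line with both transgenes, against 73.1, 84.8 and 81.1 CPM at 17 °C, which was that line's smallest adjusted p among members (log2 fold change 1.76 ± 0.45, adjusted p = 0.00071). The 3 most abundant members moved less than the median member in each line, while ATCG01100, also abundant at a mean of 371 CPM, moved more (log2 fold changes of 1.38 to 2.65). ATCG00490, with the highest mean level of all members (1953 CPM over the 90 libraries), had 1403, 1493 and 1123 CPM at 27 °C in PHYD-YFP/abCde, against 383, 722 and 612 CPM at 17 °C, and rose by 1.23 ± 0.53 on the log2 scale (adjusted p = 0.042). In the other 4 lines its log2 fold change lay between -0.20 and 0.75 and was not called. ATCG00340 and ATCG00350, the next in level at means of 599 and 550 CPM, were not called in any line, with log2 fold changes of -0.59 to 0.78 for ATCG00340 and -0.39 to 0.74 for ATCG00350.

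After 24 h R at 17 °C, the mean chloroplast sum was above that in darkness in every line. The largest median fold change of the members was that of PHYD-YFP/abCde. The chloroplast sum was 4245, 10171 and 10885 CPM in the irradiated libraries of that line, against 1542, 3004 and 3438 CPM in its dark libraries. PHYB-CFP/abcde had 10453, 13455 and 17831 CPM after 24 h R, against 8353, 8378 and 9892 CPM in darkness, again with no overlap. The sums overlapped in the other lines, where the means were 17274 ± 7525 CPM after 24 h R and 11110 ± 2490 CPM in darkness in PHYD-YFP/abcde, 4850 ± 1929 CPM after 24 h R and 2333 ± 1212 CPM in darkness in aBcde, and 27369 ± 6992 CPM after 24 h R and 18058 ± 6396 CPM in darkness in the line with both transgenes (SD, n = 3 each). Whether dark seedlings were kept to the age of those that received 24 h R is not given in the sources used here, so light and age cannot be told apart.

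Called higher after 24 h R at 17 °C were 63 members in PHYD-YFP/abCde, 18 in aBcde, 4 in PHYB-CFP/abcde, 4 in the line with both transgenes and none in PHYD-YFP/abcde, where 5 members had an unadjusted p under 0.05 and DESeq2 also called none. Over all genes tested the percentages called higher were 8.45%, 12.0%, 5.57%, 10.3% and 2.87%, in the same order, so the members of PHYD-YFP/abCde stood above the background, and those of aBcde near it and below it in the fits without some libraries given below. The members of PHYB-CFP/abcde, the line with both transgenes and PHYD-YFP/abcde stood below the background. The median log2 fold change of the members was 1.44, 0.78, 0.34, 0.39 and 0.54 in that order, and 67 members were positive in all 5 lines. Mitochondrial genes had medians of 0.65, -0.03, 0.12, 0.23 and -0.003. The count in PHYD-YFP/abCde rested on its libraries: it was 9 members in either direction without replicate 1, 20 without replicate 2 and 75 without replicate 3. In aBcde the count in either direction was 19, against 7 without the 5 libraries of low chloroplast sum, 2 without replicate 2 and 6 without replicate 3. PHYB-CFP/abcde had 0 without replicate 1 and 1 without replicate 2, the line with both transgenes 2 and 1, and PHYD-YFP/abcde 16 without replicate 3. Without the 5 libraries of low chloroplast sum, PHYB-CFP/abcde had 9, the line with both transgenes 11 and PHYD-YFP/abcde 3.

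ATCG00020 was called higher in 4 lines after 24 h R at 17 °C. It had 65.2, 138 and 89.2 CPM in irradiated PHYD-YFP/abCde, against 11.7, 31.1 and 25.5 CPM in darkness (log2 fold change 2.10 ± 0.46, adjusted p = 0.00017). In aBcde it had 97.4, 112 and 152 CPM after 24 h R, against 37.1, 46.2 and 17.9 CPM in darkness (1.84 ± 0.45, adjusted p = 0.00059). No irradiated library overlapped a dark one in these lines, and ATCG00020 also rose in PHYB-CFP/abcde, by 1.25 ± 0.44 (adjusted p = 0.027), and in the line with both transgenes (adjusted p = 0.0026), with 198, 277 and 252 CPM after 24 h R, against 73.1, 84.8 and 81.1 CPM in darkness. The smallest adjusted p among members belonged to ATCG00330 in PHYD-YFP/abCde, at 125, 145 and 49.0 CPM after 24 h R, against 10.4, 16.2 and 18.1 CPM in darkness (2.84 ± 0.54, adjusted p = 1.6e-05). In each of the 4 lines with calls, 1 member was called lower. ATCG00090 fell in PHYB-CFP/abcde, with 57, 87 and 58 counts after 24 h R, against 278, 222 and 218 counts in darkness (log2 fold change -1.72 ± 0.52, adjusted p = 0.0091). ATCG00060 fell in the line with both transgenes, with 9, 6 and 1 counts after 24 h R, against 32, 35 and 30 in darkness (adjusted p = 0.0015). ATCG00060 in aBcde and ATCG00320 in PHYD-YFP/abCde were called lower too, but rested on 0, 0 and 0 counts after 24 h R, against 0, 8 and 0 and against 1, 7 and 13 in darkness, and no fold is given for them.

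At 27 °C, 24 h R went with lower chloroplast sums in PHYD-YFP/abCde and PHYB-CFP/abcde. PHYD-YFP/abCde had 3571, 4888 and 5801 CPM after 24 h R, against 6606, 8315 and 9358 CPM in darkness. PHYB-CFP/abcde had 11584, 12205 and 12645 CPM after 24 h R, against 13685, 14038 and 23031 CPM in darkness. Neither line overlapped between light and dark, while in the other 3 lines the ranges overlapped, with means of 12184 ± 2169 CPM after 24 h R and 15460 ± 9893 CPM in darkness in PHYD-YFP/abcde, 4810 ± 798 CPM after 24 h R and 4731 ± 2073 CPM in darkness in aBcde, and 25019 ± 2438 CPM after 24 h R and 22245 ± 4363 CPM in darkness in the line with both transgenes. Members called lower after 24 h R at 27 °C numbered 20 in PHYD-YFP/abCde, 15 in PHYB-CFP/abcde, 1 in aBcde and none in the other lines, and none was called higher. The call was made for 2.59%, 3.02% and 3.46% of all genes tested in these 3 lines, and for 0.221% in PHYD-YFP/abcde and 2.13% in the line with both transgenes. In the lines without a call, 0 and 1 members had an unadjusted p under 0.05, and DESeq2 called none. In these 3 lines the counts were 3, 2 and 1 members without replicate 1, 2, 2 and 0 without replicate 2, 21, 6 and 2 without replicate 3, and 31, 27 and 4 without the 5 libraries of low chloroplast sum. Without replicate 3, PHYD-YFP/abcde had 4 and the line with both transgenes 1. Medians over the members were -0.86 in PHYD-YFP/abCde, -0.69 in PHYB-CFP/abcde, -0.21 in aBcde, -0.29 in PHYD-YFP/abcde and 0.05 in the line with both transgenes, and those over the mitochondrial genes were -0.81, -1.18, -0.78, -0.55 and -0.67.

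ATCG01020 was called lower in the 3 lines with any call at 27 °C. In PHYD-YFP/abCde it had 17.9, 18.3 and 14.4 CPM after 24 h R, against 45.5, 52.4 and 39.4 CPM in darkness, and in PHYB-CFP/abcde it had 30.9, 26.8 and 37.4 CPM after 24 h R, against 73.3, 70.6 and 157 CPM in darkness. Light and dark did not overlap, and the log2 fold changes were -1.43 ± 0.43 (adjusted p = 0.0078) and -1.66 ± 0.43 (adjusted p = 0.0015), with -1.20 ± 0.43 (adjusted p = 0.024) in aBcde. ATCG00020 went the other way from most members at 27 °C, with log2 fold changes of 0.21 to 1.03 in the 5 lines, none of them called.

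The response to 24 h R was called different between the temperatures for most members in PHYD-YFP/abCde and for few or none in the other lines. The dark libraries of both temperatures enter this test, so it is not independent of the comparison of 27 °C with 17 °C in darkness. Tested as a difference, the response was lower at 27 °C than at 17 °C for 63 members and higher for 1 in PHYD-YFP/abCde, lower for 7 in PHYB-CFP/abcde, and called for none in PHYD-YFP/abcde, aBcde and the line with both transgenes. Over all genes tested the response was called lower at 27 °C for 3.47%, 1.14%, 0.312%, 1.95% and 1.64% in that order. Where no member was called, 5, 14 and 2 members had an unadjusted p under 0.05, and DESeq2 called 0, 2 and 0. The median difference over the members was -2.28, -1.02, -0.84, -0.93 and -0.43 on the log2 scale, and the sign was negative in all 5 lines for 70 members. The mitochondrial medians were -1.68, -1.38, -0.69, -0.72 and -0.94 in the same order, further from 0 than the members' in PHYB-CFP/abcde and the line with both transgenes. The count in PHYD-YFP/abCde was 1 without replicate 1, 6 without replicate 2 and 79 without replicate 3. That in PHYB-CFP/abcde was 1 without replicate 1, 0 without replicate 2, 4 without replicate 3 and 21 without the 5 libraries of low chloroplast sum, and 53 when only the groups compared were fitted. Of the lines without a call, PHYD-YFP/abcde had 3 and aBcde 2 members without replicate 3, and with only the groups compared aBcde had 7 and the line with both transgenes 3. Without the 5 libraries of low chloroplast sum, PHYD-YFP/abcde and aBcde had 1 member each. The member with the smallest adjusted p in PHYD-YFP/abCde was ATCG00420, whose response differed by -3.28 ± 0.73 on the log2 scale (adjusted p = 0.0008). The 1 member with a response called higher was ATCG00320, whose 17 °C libraries after 24 h R held no count.

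No member was called different between lines in its 24 h R response on this scale. The response of aBcde was compared with that of PHYD-YFP/abcde, and the response of PHYD-YFP/abCde with that of PHYD-YFP/abcde. The former sets phyB in place of the PHYD-YFP transgene. In the latter both phyC and the PHYD level differ and cannot be told apart. Mean PHYD in darkness was 15427 CPM in PHYD-YFP/abCde and 4405 CPM in PHYD-YFP/abcde at 17 °C, and 32564 and 10001 CPM at 27 °C. In either direction 6.73% of all genes were called for aBcde at 17 °C and 6.27% at 27 °C, and 2.67% at 17 °C and 1.12% at 27 °C for PHYD-YFP/abCde, against 0 of 100 members in each by edgeR and by DESeq2. An unadjusted p under 0.05 was reached by 1 and 0 members for aBcde and by 12 and 2 for PHYD-YFP/abCde. The median difference was largest for PHYD-YFP/abCde, at 0.93 at 17 °C and -0.55 at 27 °C, differences that were not detectable with 3 libraries in each group. Without replicate 3, 6 members were called for aBcde at 17 °C, 2 for aBcde at 27 °C and 1 for PHYD-YFP/abCde at 17 °C, and PHYD-YFP/abCde at 17 °C had 2 without the 5 libraries of low chloroplast sum.

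After 1 h R, chloroplast genes were lower than in darkness in aBcde at 17 °C and showed few or no calls elsewhere. The chloroplast sum of aBcde at 17 °C was 599, 951 and 1126 CPM after 1 h R, against 942, 2897 and 3161 CPM in darkness, where the lowest dark library overlapped the irradiated ones. There 15 members were called lower, against 4.84% of all genes, and the count was 71 without the 5 libraries of low chloroplast sum, which include that dark library, 75 without replicate 3, and 0 without replicate 1 or without replicate 2. DESeq2 called 43 and a fit of only the groups compared 67. The median log2 fold change was -1.29 over the members and -0.62 over the mitochondrial genes. ATCG00490 had 158, 98.3 and 176 CPM after 1 h R in aBcde at 17 °C, against 653, 755 and 193 CPM in darkness (log2 fold change -1.89 ± 0.54, adjusted p = 0.0074). Dark replicate 3 was near the irradiated ones. In PHYD-YFP/abCde at 17 °C the only call was ATCG00320, with 0, 0 and 0 counts after 1 h R, against 1, 7 and 13 in darkness, where 0.355% of all genes were called lower. Without the 5 libraries of low chloroplast sum no member was called there. In the other 3 lines at 17 °C no member was called lower, against 0.0288% of all genes in PHYD-YFP/abcde, 0.120% in PHYB-CFP/abcde and 0.249% in the line with both transgenes. At 27 °C no member was called in any line, against 0.0384%, 0.0960%, 0.753%, 0.792% and 0.739% of all genes called lower in PHYD-YFP/abcde, PHYD-YFP/abCde, aBcde, PHYB-CFP/abcde and the line with both transgenes. In these 8 comparisons without a call, 0 to 4 members had an unadjusted p under 0.05, and DESeq2 called none.

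The sums move all members of a library together, so another scale, chosen after the data had been seen, asked how the make-up of the chloroplast counts changed. In it the counts of each compartment were TMM-scaled to that compartment's own counts, a gene was called at an adjusted p under 0.05 alone, and a change is a change of a member relative to the other members. Higher and lower calls are near balance on this scale because the typical member is set near 0. Shares are also given as percent of the summed member counts of a library, whose changes differ in size from the scaled ones because a few members hold much of the sum. ATCG00490 held 18.3% on average, and the 10 members with the highest means held 50.8%.

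Temperature changed the make-up of the chloroplast counts in darkness in every line. PHYD-YFP/abcde had 20 members called higher and 17 called lower, with 19 and 26 in PHYD-YFP/abCde, 24 and 21 in aBcde, 18 and 21 in PHYB-CFP/abcde, and 16 and 30 in the line with both transgenes. The share of all genes called in either direction was 53.1%, 57.7%, 54.4%, 52.0% and 49.4%, above the members' share in each line. The calls repeated over lines: 7 members were higher in all 5 (ATCG00160, ATCG00360, ATCG00420, ATCG01050, ATCG01090, ATCG01100 and ATCG01110) and 10 were lower in all 5 (ATCG00070, ATCG00080, ATCG00340, ATCG00350, ATCG00400, ATCG00470, ATCG00480, ATCG00680, ATCG00720 and ATCG00730).

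ATCG01110 held 1.05, 1.32 and 1.62% of the chloroplast counts (lowest, median and highest of the 15 dark libraries) at 27 °C, against 0.244, 0.406 and 0.612% at 17 °C. Its libraries did not overlap between the temperatures in any line or over all lines. The log2 change was 1.61 ± 0.15 in PHYD-YFP/abCde (adjusted p = 3.8e-15) and between 1.08 and 1.56 in the other 4 lines. ATCG00340 went the other way without overlap, with 2.67, 3.17 and 3.68% at 27 °C, against 4.39, 5.95 and 7.21% at 17 °C. Its log2 change was -1.54 ± 0.13 in aBcde (adjusted p = 1.9e-16) and between -1.15 and -0.93 in the other 4 lines. Likewise ATCG00720 held 1.59, 1.88 and 2.05% at 27 °C, against 2.25, 2.85 and 3.16% at 17 °C, with log2 changes of -0.88 to -0.76. ATCG01100 held 3.33, 4.42 and 4.97% at 27 °C, against 1.39, 1.94 and 2.51% at 17 °C. For ATCG00420 the values were 0.382, 0.434 and 0.515% at 27 °C, against 0.122, 0.193 and 0.351% at 17 °C. Both were higher in each line, and neither overlapped. ATCG00400 held 0.736, 0.938 and 1.30% at 27 °C, against 1.25, 1.97 and 3.34% at 17 °C, with log2 changes of -1.64 to -1.02 and no overlap within any line. The largest member, ATCG00490, held 8.89, 16.0 and 25.2% at 27 °C, against 13.6, 21.0 and 28.1% at 17 °C, and its log2 change passed the test in PHYD-YFP/abCde (-0.64), PHYB-CFP/abcde (-0.80) and the line with both transgenes (-0.82).

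**Figure D3:**
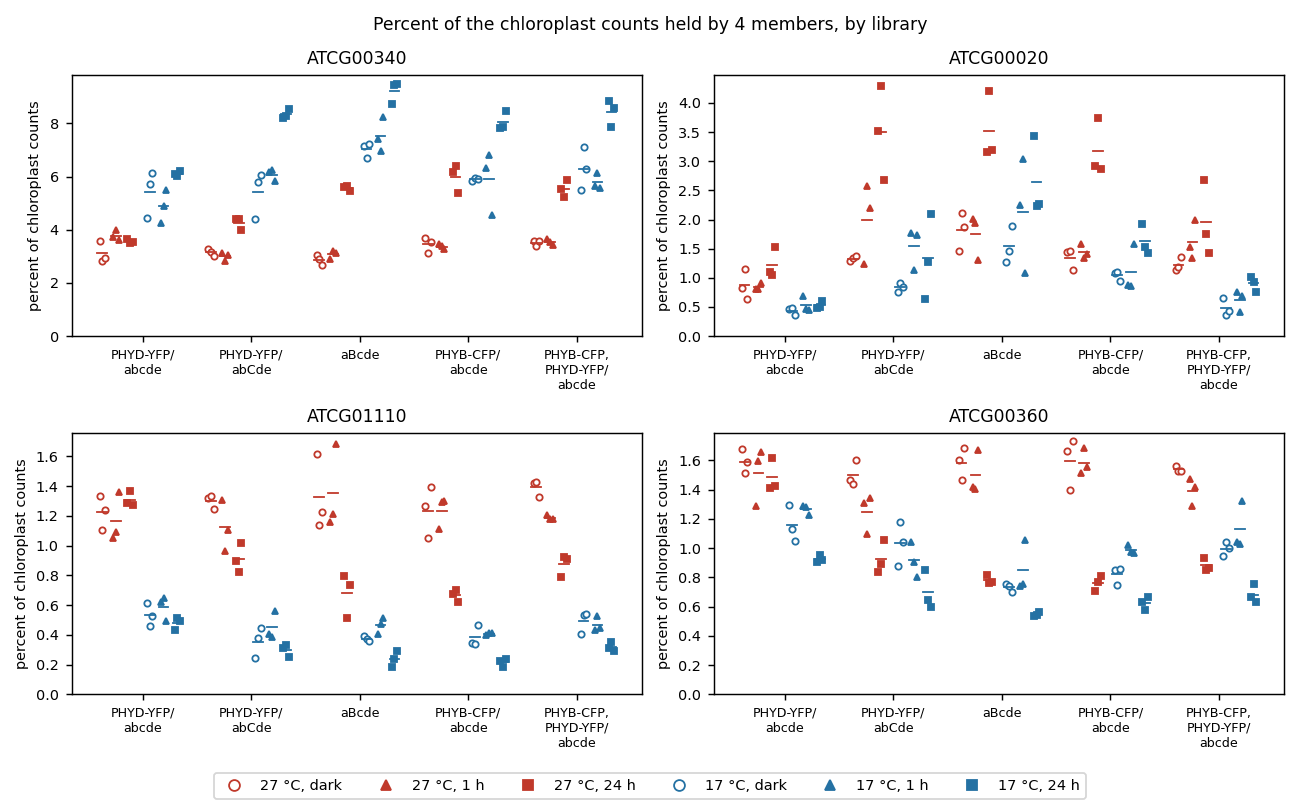
Percent of the chloroplast counts held by 4 members in every library, by line, with an axis from 0, 27 °C in red and 17 °C in blue, open circles for darkness, triangles for 1 h R, squares for 24 h R and bars at the group means. ATCG01110 at 27 °C in darkness (1.05 to 1.62%) lies above every 17 °C dark library (0.244 to 0.612%), and ATCG00340 at 27 °C in darkness (2.67 to 3.68%) lies below every 17 °C dark library (4.39 to 7.21%).

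Members were called on this scale after 24 h R as well, with few in PHYD-YFP/abcde, where the share of all genes called was lowest too. At 17 °C the members called (higher first, then lower) numbered 3 and 0 in PHYD-YFP/abcde, 18 and 12 in PHYD-YFP/abCde, 16 and 11 in aBcde, 21 and 9 in PHYB-CFP/abcde, and 15 and 9 in the line with both transgenes, against 11.8%, 34.0%, 43.5%, 25.7% and 37.6% of all genes in either direction. At 27 °C they numbered 1 and 1, 20 and 16, 21 and 18, 19 and 18, and 17 and 12 in the same order of lines. Of all genes, 7.24%, 30.1%, 35.6%, 31.8% and 27.8% were called there. At 17 °C the members' share thus lay slightly above that of all genes in PHYB-CFP/abcde and below it in the other lines. At 27 °C it lay below that of all genes in PHYD-YFP/abcde and near or slightly above it in the other lines. Over the 10 comparisons ATCG00720 and ATCG00730 were called higher in 9, ATCG00020, ATCG00340 and ATCG01010 in 8, and ATCG00130, ATCG00350, ATCG00680 and ATCG00710 in 7. ATCG00180, ATCG00360 and ATCG01110 were called lower in 6. A positive change in all 10 comparisons was found for 10 members and a negative one for 4. Leaving out replicate 2, the 17 °C counts in either direction became 1, 25, 17, 17 and 13, and those for 27 °C became 0, 19, 26, 22 and 12, in the order of lines above. Without the 5 libraries of low chloroplast sum PHYD-YFP/abcde had 8 at 17 °C and 5 at 27 °C.

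ATCG00340 held 6.02, 8.26 and 9.49% (lowest, median and highest of 15 libraries) after 24 h R at 17 °C, against 4.39, 5.95 and 7.21% in darkness. At 27 °C it held 3.51, 5.39 and 6.40% after 24 h R, against 2.67, 3.17 and 3.68% in darkness. Its log2 change ranged from 0.47 to 1.13 in the 8 comparisons that passed the test and was 0.23 at 17 °C and 0.11 at 27 °C in PHYD-YFP/abcde. ATCG00720 held 2.09, 2.87 and 3.06% after 24 h R at 27 °C, against 1.59, 1.88 and 2.05% in darkness, with no overlap in any line or between them. ATCG00020 had 1.05, 2.87 and 4.29% after 24 h R at 27 °C, against 0.635, 1.34 and 2.11% in darkness, and log2 changes of 0.84 to 1.45 where it passed the test. On the other side ATCG00360 held 0.707, 0.849 and 1.61% after 24 h R at 27 °C, against 1.40, 1.56 and 1.73% in darkness, the highest irradiated libraries being those of PHYD-YFP/abcde, at 1.41, 1.61 and 1.43%. In the other 4 lines its log2 change at 27 °C was -0.84 to -0.64. ATCG01110 held 0.510, 0.820 and 1.37% after 24 h R at 27 °C, against 1.05, 1.32 and 1.62% in darkness, again with PHYD-YFP/abcde as the highest irradiated line (1.28, 1.37 and 1.27%). ATCG00400 held 0.575, 1.01 and 2.18% after 24 h R at 17 °C, against 1.25, 1.97 and 3.34% in darkness. It passed the test in 3 lines at 17 °C (log2 changes of -0.99 to -0.83) and in none at 27 °C, where its change was -0.10 to 0.34.

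**Figure D4:**
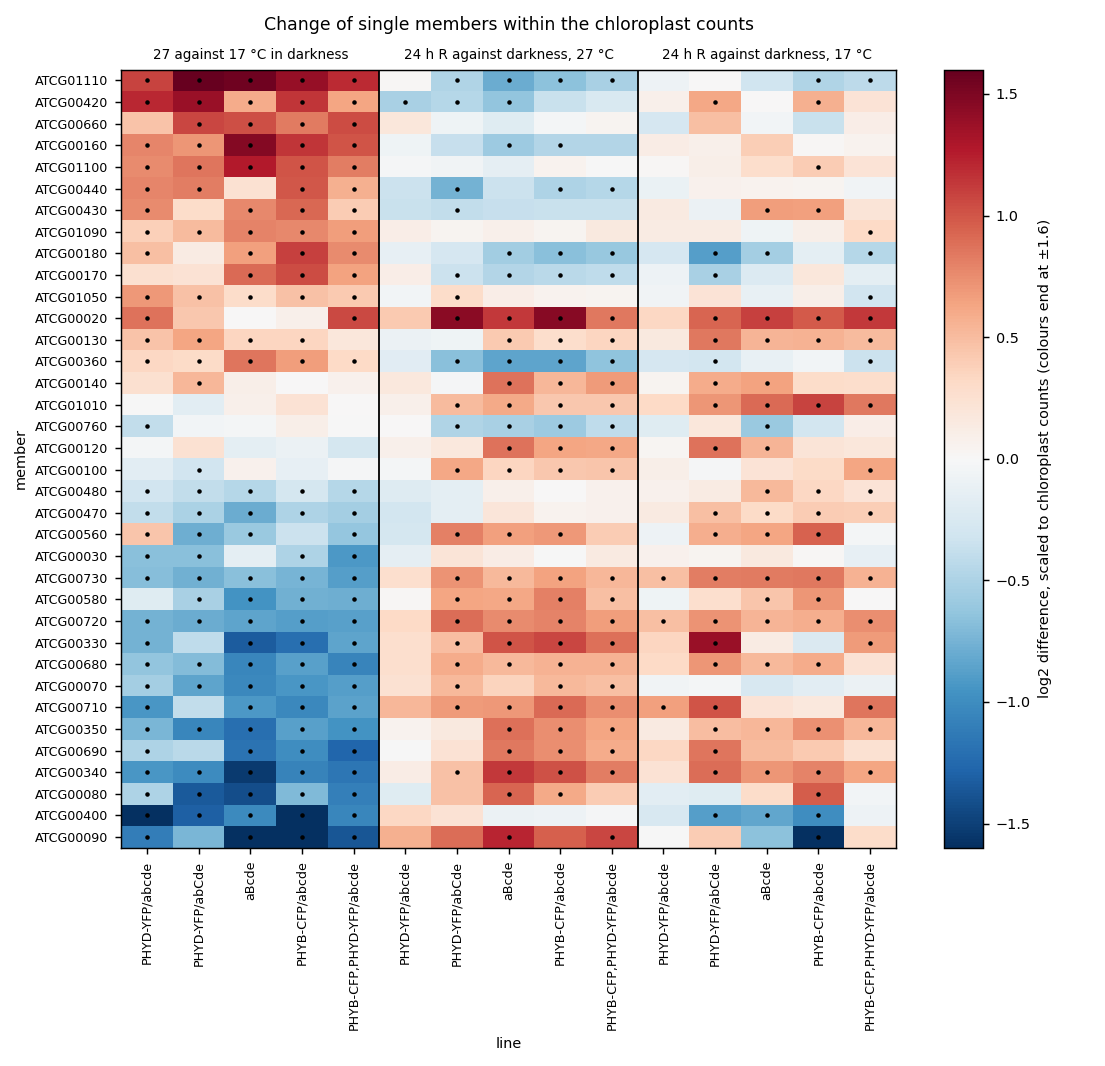
Log2 change within the chloroplast counts (colour, ending at ±1.6) of 36 members in rows, by line in columns, for 27 °C against 17 °C in darkness and for 24 h R against darkness at each temperature, with a dot where the adjusted p was under 0.05. The members lower at 27 °C in all 5 lines, such as ATCG00340 and ATCG00720, and those higher in all 5, such as ATCG01110 and ATCG01100, form rows of a single colour in the first block, and the columns of PHYD-YFP/abcde are pale in the 24 h R blocks.

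The response of the make-up to 24 h R differed between temperatures for 8 members higher and 15 lower at 27 °C in PHYD-YFP/abCde, 4 and 7 in aBcde, 7 and 15 in PHYB-CFP/abcde, 1 and 0 in the line with both transgenes and none in PHYD-YFP/abcde, where 7 members had an unadjusted p under 0.05 and DESeq2 also called none. The background of all genes in either direction was 14.2%, 10.2%, 8.97%, 7.44% and 1.27% in that order. Leaving out replicate 1 or 2 gave 5 and 11 members in PHYD-YFP/abCde, 4 and 3 in aBcde, and 9 and 4 in PHYB-CFP/abcde. ATCG00130 responded less at 27 °C in PHYD-YFP/abCde, by -0.92 ± 0.16 on the log2 scale (adjusted p = 1.3e-05). There it held 4.36, 3.00 and 2.82% after 24 h R at 17 °C, against 2.01, 2.54 and 2.32% in darkness, and 3.66, 3.63 and 4.33% after 24 h R at 27 °C, against 4.17, 4.07 and 4.26% in darkness. At 17 °C all irradiated libraries lay above the dark ones, and at 27 °C they overlapped. ATCG00360 fell more at 27 °C in aBcde (-0.73 ± 0.16, adjusted p = 0.0014) and in PHYB-CFP/abcde (-0.79 ± 0.16, adjusted p = 0.00042).

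A few members were called between lines on this scale. Their share was below that of all genes for aBcde at 17 °C and near or slightly above it in the other comparisons. Against PHYD-YFP/abcde, the 24 h R response of aBcde was higher for 4 and lower for 1 member at 17 °C and higher for 9 and lower for 3 at 27 °C, with 13.3% and 10.4% of all genes called. That of PHYD-YFP/abCde was higher for 4 and lower for 1 at 17 °C and higher for 2 and lower for 2 at 27 °C, with 4.64% and 2.23% of all genes called. At 27 °C, ATCG00340 rose further in aBcde than in PHYD-YFP/abcde, by 1.02 ± 0.18 on the log2 scale (adjusted p = 1.8e-05). It held 5.45 to 5.64% after 24 h R in aBcde, against 3.07, 2.90 and 2.67% in darkness, and 3.65, 3.51 and 3.55% after 24 h R in PHYD-YFP/abcde, against 3.59, 2.84 and 2.93% in darkness. ATCG01110 fell further in aBcde (-0.81 ± 0.19, adjusted p = 0.0023). The 12 members at 27 °C became 3 without replicate 2, and the 5 members of aBcde at 17 °C became 0 without replicate 1 and 1 without replicate 2. For PHYD-YFP/abCde the 4 members at 27 °C became 0 without replicate 1 or without replicate 2, and the 5 at 17 °C became 2 without replicate 1 and 1 without replicate 2. After 1 h R, members called numbered 4 in PHYD-YFP/abCde and 5 in aBcde at 17 °C, 2 in PHYB-CFP/abcde at 27 °C and none elsewhere, where 0 to 17 members had an unadjusted p under 0.05 and DESeq2 called 1 member in aBcde at 27 °C and none in the others. Without replicate 2 the 3 counts were 0, 1 and 0, and without the 5 libraries of low chloroplast sum 0, 4 and 0. The background in either direction at 17 °C was 0.0672%, 6.21%, 22.9%, 0.739% and 1.18% in PHYD-YFP/abcde, PHYD-YFP/abCde, aBcde, PHYB-CFP/abcde and the line with both transgenes, and at 27 °C it was 0.729%, 0.441%, 4.27%, 5.53% and 8.21%.

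Members with neighbouring identifiers changed more alike than pairs taken over all members, but not in every case. Taking identifiers in order, which in the Arabidopsis numbering runs along the chloroplast genome, neighbours differed by a median of 0.35 log2 units in their change at 27 °C against 17 °C in darkness, against 0.58 over all 4950 pairs of members, and by 0.14 in their 24 h R response, against 0.34 over all pairs. The sign was shared by 62.6% of the 99 neighbouring pairs for temperature and 72.7% for light, against 49.5% and 49.7% of all pairs. These values are a description: neighbours can overlap or share a transcript, and reads from a gene and one on the opposite strand cannot be told apart where counting without strand was used, a setting not given in the sources used here. For both temperature and light, ATCG00340 with ATCG00350 and ATCG00720 with ATCG00730 were runs of this kind. ATCG01090, ATCG01100 and ATCG01110 were a run for temperature only. After 24 h R, ATCG01110 was called lower in 6 of 10 comparisons, while ATCG01090 and ATCG01100 were each called higher in 1 and lower in none. ATCG00350 and its neighbour ATCG00360 went opposite ways. At 27 °C in darkness ATCG00350 was lower and ATCG00360 higher in all 5 lines. After 24 h R, ATCG00350 was called higher in 7 comparisons and ATCG00360 lower in 6.

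**Figure D5:**
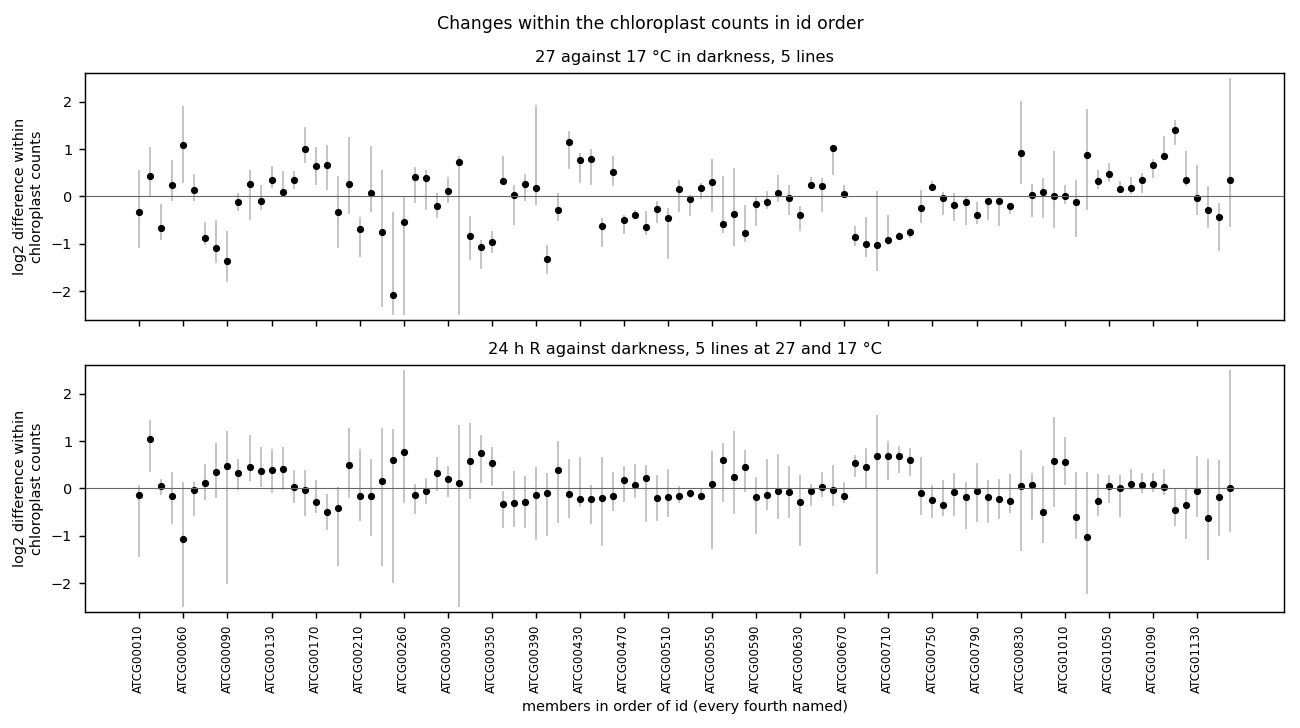
Log2 change within the chloroplast counts of the 100 members in order of identifier, for 27 °C against 17 °C in darkness (top) and 24 h R against darkness (bottom), with dots for the median over the lines or comparisons and bars for their range, cut off at ±2.5. Neighbouring dots sit closer (median distance 0.35 and 0.14) than dots taken over all pairs (0.58 and 0.34).

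For 6 members RefSeq's notes for the Arabidopsis genome name a protein, and these names are given as noted, without a further check of the role. ATCG00660 is noted as ribosomal protein L20 and was called higher at 27 °C in darkness in all 5 lines on the nuclear scale. It had 92.1, 117 and 71.5 CPM at 27 °C in the line with both transgenes, against 19.1, 34.8 and 33.4 CPM at 17 °C, with no overlap. Within the chloroplast counts it rose in 4 lines, by 0.83 to 1.07 on the log2 scale, and its change in PHYD-YFP/abcde was 0.45. ATCG00430 is noted as a photosystem II reaction center protein G, a name from which no role in photosystem II is taken here. It had 75.9, 65.8 and 142 CPM at 27 °C in PHYB-CFP/abcde, against 22.2, 19.4 and 20.8 CPM at 17 °C. ATCG00430 was called higher in 4 lines on the nuclear scale. Its share rose in 4 lines too, by 0.41 to 0.92, the line missing being PHYD-YFP/abCde (0.29). ATCG00670, the plastid-encoded subunit of the Clp protease (CLP P), and ATCG00530, noted as related to the proton extrusion protein CemA, were called higher in 3 lines (PHYB-CFP/abcde, PHYD-YFP/abCde, aBcde) on the nuclear scale, by 1.34 to 1.81 and by 1.28 to 1.74. Within the chloroplast counts they stayed near the typical member, at -0.02 to 0.24 and at -0.42 to 0.03. ATCG00750, ribosomal protein S11, was called in the same 3 lines, and its share passed the test in none of the 5, with changes of 0.11 to 0.31. It was lower after 24 h R at 27 °C in PHYD-YFP/abCde, with 15.2, 15.3 and 11.5 CPM, against 39.9, 48.1 and 28.2 CPM in darkness (log2 fold change -1.46). ATCG01310, ribosomal protein L2, had 0 to 22 counts in the 90 libraries and was called in none of these comparisons.

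Nuclear genes for plastid transcription were followed beside the members. Of a list of 20, 1 or 2 rose at 27 °C in darkness and 7, 10, 3, 6 and 5 fell in PHYD-YFP/abcde, PHYD-YFP/abCde, aBcde, PHYB-CFP/abcde and the line with both transgenes. Over all genes tested 14.2%, 16.5%, 15.4%, 13.9% and 13.2% were called lower in that order, so the count that fell in aBcde was no larger than the background. The share of all genes called higher was 10.6%, 13.4%, 11.3%, 9.81% and 9.16%, so the counts that rose were near or below it. AT5G15700, a nuclear-encoded RNA polymerase of the phage type that works in plastids and mitochondria, had 17.3, 23.2 and 30.2 CPM at 27 °C (lowest, median and highest of 15 dark libraries), against 3.22, 5.82 and 8.83 CPM at 17 °C, and rose in all 5 lines, by 1.59 to 2.37 on the log2 scale. SIGA (SIG1), a sigma factor that directs the plastid-encoded polymerase, had 9.13, 14.6 and 19.8 CPM at 27 °C, against 40.0, 62.8 and 83.2 CPM at 17 °C, and fell in all 5 lines, with log2 fold changes of -2.38 to -1.69. For neither gene did a library at 27 °C overlap one at 17 °C. SIGC (SIG3), another sigma factor, and PTAC7, a component of the plastid-encoded polymerase complex, fell in all 5 lines as well, and SIGE (SIG5), a sigma factor known for its induction by light and stress, rose in 4. SCA3, the plastid's own phage-type polymerase, was called in no line, at -0.58 to 0.94.

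After 24 h R, 9 of the 20 transcription genes were called higher in at least 1 of the 10 comparisons and 11 in none, and FSD3 was called lower in 1. At 17 °C the genes called higher numbered 1, 1, 6, 1 and 3 in the order of lines above, against 2.87%, 8.45%, 12.0%, 5.57% and 10.3% of all genes. The counts in PHYD-YFP/abCde and PHYB-CFP/abcde thus did not exceed that background. At 27 °C they numbered 2, 6, 8, 7 and 6 in the order of lines above, against 3.00%, 7.49%, 11.0%, 9.41% and 9.15% of all genes called higher at 27 °C. SIGE rose in all 10 comparisons, by 1.18 to 2.70 on the log2 scale, SIGA and PTAC7 in 6, SIGC and FSD2, an iron superoxide dismutase of the polymerase complex, in 5, and TRX z, a plastid thioredoxin, in 4. SIGE had 10.9, 22.8 and 54.7 CPM after 24 h R at 27 °C, against 2.99, 6.40 and 13.2 CPM in darkness, and 5.57, 9.24 and 21.3 CPM after 24 h R at 17 °C, against 1.71, 2.95 and 4.87 CPM in darkness. It was also called higher after 1 h R in 5 of 10 comparisons. AT5G15700 was not called after 24 h R in any, at -0.44 to 0.87. Of 6 nuclear genes for plastid RNA turnover, CRB (CSP41B) rose in all 10 comparisons, by 1.45 to 4.33, and CSP41A in 9, and both fell at 27 °C in darkness in all 5 lines, with log2 fold changes of -3.01 to -2.16 for CSP41A and -2.13 to -1.26 for CRB. These are RNA-binding proteins of the chloroplast with endonuclease activity. EMB2730 (RNR1), an exoribonuclease that trims plastid transcripts, was called in no comparison of light or temperature, and RIF10, the polynucleotide phosphorylase that adds and removes RNA tails in plastids, was called lower in PHYD-YFP/abCde at 27 °C in darkness and after 1 h R in aBcde at 17 °C. In that last comparison 10 of the 20 transcription genes and 4 of the 6 turnover genes were called lower, against 4.84% of all genes tested. The 15 members called lower there became 0 without replicate 1 or without replicate 2. A link between these nuclear genes and the members was not tested.

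The count rule left some members near its edge. Just inside it were ATCG00320, ATCG01310 and ATCG00240, with at least 5 counts in 26, 27 and 34 libraries, and just outside were ATCG01250, ATCG00890 and ATCG00900, with 22, 21 and 18. Of the 100 members, 77 had at least 5 counts in all 90 libraries, and 85 had a count in each. Up to 12 members had no count in a library of aBcde and up to 11 in one of PHYD-YFP/abCde, against at most 2 in the other lines, so calls on low members, such as ATCG00320 and ATCG00060 above, rest on few counts in these lines.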

How the data were processed

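RNA of 90 libraries was sequenced after poly(A) enrichment, and the deposited table holds raw counts per gene that the authors made with STAR and HTSeq on the TAIR10 annotation (versions are not given in the sources used here, nor is the strand setting). In their own analysis the authors left out chloroplast, mitochondrial, tRNA and rRNA genes and used edgeR. Here the 28775 rows were reduced to genes with at least 5 counts in 25% of libraries, without 627 nuclear tRNA and rRNA rows. Library sizes and TMM factors came from nuclear genes, since the chloroplast share varied between 0.0306 and 2.97%. A single model of 30 groups (60 residual degrees of freedom) was fitted with edgeR 4.0.16 in R 4.3.3 (glmQLFit and glmQLFTest), with Benjamini-Hochberg adjustment over all 20844 genes. A call asked for an adjusted p under 0.05 and a 2-fold change. The SE of a log2 fold change was taken from its F value, as its size over the root of F. The scale within each compartment, with its alternatives, and the fit without 5 libraries were added after the data had been seen. Both fits were tested on simulated data. Alternatives were DESeq2 1.42.0, limma 3.58.1 on quantile-normalized log2 CPM (prior count 2), all genes in the library size, no filter, only the groups compared, a replicate block, and leaving out replicates. Members, gene lists and the genes with values in every library (the 5 most abundant, up to 3 in each direction with the smallest p among those called per comparison, those at the edge of the count rule, and those of the gene lists) were chosen with earlier results of these data known. Members described beyond that rule, such as those called in every line, were chosen after their values were seen. No libraries of a group agreed within sampling noise. Depth was about 15010400 to 41124200 counts per library, and members at few counts are given as counts.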

Additional observations from a re-analysis of the deposited data

Results flagged for a closer look

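Differences between responses that were tested as such are given here as numbers of the 100 members, with no explanation. The response to 24 h R differed between 27 °C and 17 °C, scaled to nuclear counts, for 64 members in PHYD-YFP/abCde and 7 in PHYB-CFP/abcde. Within the chloroplast counts it differed for 23 members in PHYD-YFP/abCde, 11 in aBcde, 22 in PHYB-CFP/abcde and 1 in the line with both transgenes. Against PHYD-YFP/abcde, the response within the chloroplast counts differed in aBcde for 5 members at 17 °C and 12 at 27 °C, and in PHYD-YFP/abCde for 5 members at 17 °C and 4 at 27 °C. The 2 scales come from the same libraries and are not independent of each other. The 17 °C and 27 °C comparisons with PHYD-YFP/abcde each share that line's libraries. The differences between temperatures use the same dark libraries as the comparison of 27 °C with 17 °C in darkness.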

How the results depend on the processing

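Calls of members summed over the comparisons of a kind moved most when replicates were left out. Scaled to nuclear counts, 24 h R gave 129 calls, 28 to 143 when a replicate was left out and 83 with a replicate block. For 1 h R the 16 calls became 0 to 75 without a replicate, 45 with DESeq2, 67 with only the groups compared and 71 without the 5 libraries of low chloroplast sum. The 209 calls of 27 °C against 17 °C in darkness became 98 to 214 without a replicate. With the replicate block they were 49 in PHYD-YFP/abCde (82 without it), 18 in PHYB-CFP/abcde (51) and 22 in the line with both transgenes (10). The 71 calls of the difference in 24 h R response between temperatures became 2 to 88 without a replicate, 126 with only the groups compared and 45 with the replicate block. The 0 calls between lines became 0 to 9 without a replicate and 2 without the 5 libraries. Within the chloroplast counts, the 257 calls of 24 h R became 152 to 252 without a replicate, the 11 calls of 1 h R became 1 to 11, with 6 without TMM and 4 without the 5 libraries, the 57 calls of the difference between temperatures became 18 to 64 and the 26 calls between lines became 5 to 30. All other settings kept these sums within 1.5 times. ATCG00480 in PHYB-CFP/abcde at 27 °C in darkness, called lower within the chloroplast counts, was at 0.015 on the log2 scale without TMM. Of 266 values of named members, 73, 70 and 28 lost their call without replicate 1, 2 and 3, 17 with the replicate block, 13 with only the groups compared, 4 without a filter and 3 without the 5 libraries, and 26 of 182 without TMM. Of 84 on the nuclear scale, 13 lost it with limma, 4 with DESeq2 and 0 with all genes in the library size. Replicate numbers are only numbers: same-numbered libraries of a line and temperature had correlations of -0.15 to 0.20 (median -0.003) over 90 pairs, and 28 of 90 libraries correlated best with their own number. Few counts limit the lowest members, mainly in aBcde and PHYD-YFP/abCde.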
